A study of Homo sapiens with 6 samples.

Results

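The genes described here encode the eIF4E-binding proteins and the cap-binding complex: EIF4EBP1, EIF4EBP2, EIF4E, EIF4E2, EIF4G1, EIF4G2, EIF4G3, EIF4A1, EIF4A2 and EIF4B. These 10 genes, of 27988 named in the deposited assemblies, were taken by symbol. They were measured in HaCaT, an immortalised line of human epidermal keratinocytes, as total RNA in 3 libraries after transfection with an siRNA against PSENEN and in 3 after a mismatch siRNA. A Lipofectamine reagent carried the siRNAs into both groups, which grew in the same high glucose medium with 10% serum. The PSENEN group received 100 pmol of its siRNA, and RNA was taken at 48 and 72 h, without a statement of which time was sequenced. The PSENEN product, PEN-2, is part of γ-secretase, a protease that cuts Notch receptors within the membrane. The labels name 1 PSENEN siRNA, so the loss of PSENEN and any other action of that siRNA cannot be told apart. A further group that received reagent alone was not analysed here. Nothing states that the libraries of a group came from separate cultures, so their spread may be technical.

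Most mRNAs are translated after eIF4E binds the cap at their 5′ end. eIF4E joins the scaffold eIF4G and the RNA helicase eIF4A in the complex eIF4F, and eIF4B stimulates the helicase as it unwinds the leader for the ribosome. The 4E-BPs bind eIF4E at the surface that eIF4G uses and so block the assembly of eIF4F, until the kinase complex mTORC1 phosphorylates them and they let go. RNA levels, which are the only measurement here, say nothing of that phosphorylation.

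EIF4EBP2, EIF4A2 and EIF4B were higher in every PSENEN siRNA library than in any mismatch siRNA library. The other 7 genes overlapped between the groups. Levels are in TPM, a share of all transcripts in a library that is scaled for transcript length and depth, and were summed over the reference transcripts of a gene. The members were chosen by their function and with their TPM in this contrast, PSENEN siRNA against mismatch siRNA, in view, so their differences are a description and carry no test. Groups that did not overlap, with PSENEN siRNA higher, were found for 3 of the 10 genes and for 8.21% of the 15647 genes tested. The opposite order was found for 0 of the 10 and for 13.7% of all genes. By limma with Benjamini-Hochberg adjustment over all genes and a threshold of 0.05, EIF4EBP2 was the 1 member called, as higher, beside 0.128% of all genes called higher and 0.281% called lower. That call rests on the values that were in view at the choice, so it too is a description and not a test of this gene. The median log2 difference of TPM + 1 was 0.05 over the 10 genes and -0.04 over all genes tested.

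**Figure D1:**
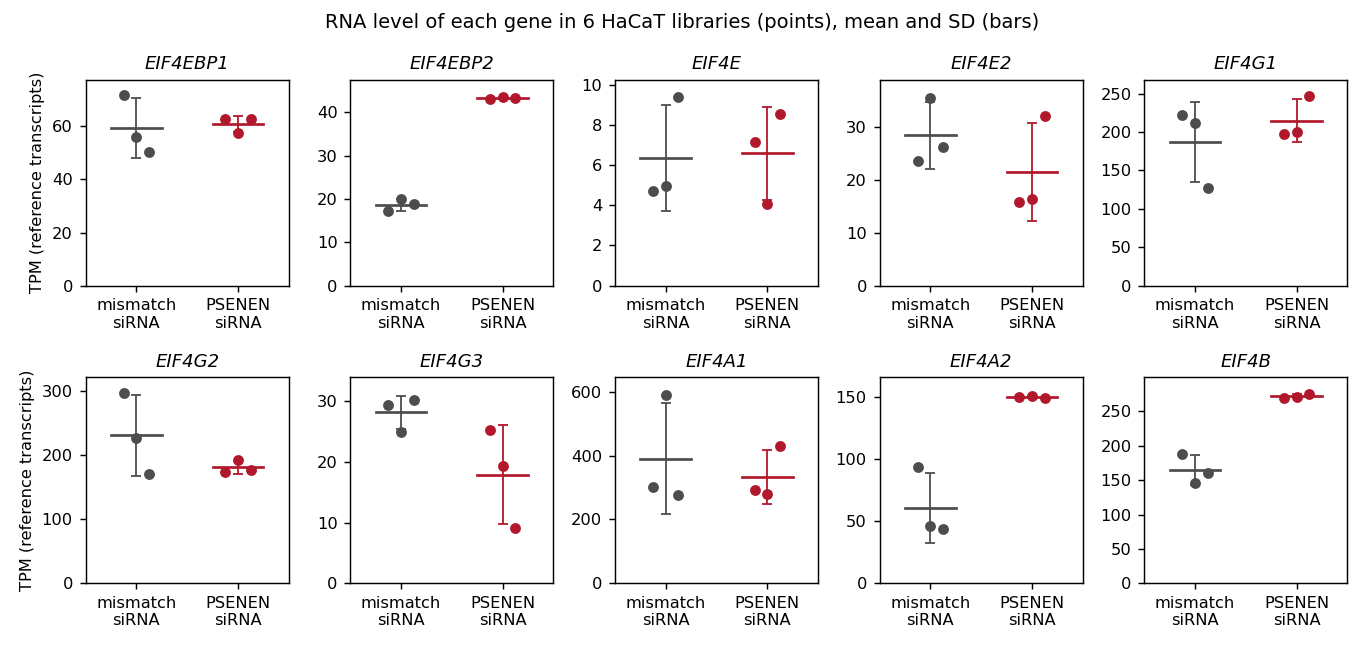
TPM of each gene, summed over reference transcripts, in each mismatch siRNA library (grey points) and PSENEN siRNA library (red points), with the group mean as a line and the SD as a bar. The groups are apart for EIF4EBP2, EIF4A2 and EIF4B and overlap for the other genes.

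The 2 repressors behaved differently. EIF4EBP1 (ENSG00000187840), the 4E-BP in which phosphorylation is most often measured, was at 62.5, 57.3 and 62.7 TPM with PSENEN siRNA and at 71.9, 55.8 and 50.4 TPM with mismatch siRNA. The groups overlapped, and the log2 difference was 0.05 (SE 0.15). It took the other sign, at -0.06, without the third mismatch siRNA library.

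EIF4EBP2 (ENSG00000148730), the 4E-BP best known from neurons, was at 43.0, 43.5 and 43.3 TPM with PSENEN siRNA. After mismatch siRNA it was at 17.2, 20.04 and 18.8 TPM. The groups were far apart against their spread: the means were 43.2 ± 0.251 and 18.7 ± 1.40 TPM (SD, n = 3), a ratio of 2.31 and a log2 difference of 1.17 (SE 0.10). Over 18 other ways of scaling, filtering or leaving out a library, the difference stayed between 1.03 and 1.28. Among these, other filters, a fit without the trend on intensity and the replicate block cannot change the difference of a gene. The sum with assembled transcripts cannot either, as EIF4EBP2 has none. The call itself was lost in each of the 6 fits that left out 1 library and with the replicate number as a block. In the mismatch siRNA libraries EIF4EBP1 was well above EIF4EBP2, and in the PSENEN siRNA libraries the levels of the 2 repressors lay closer together.

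EIF4EBP2 has 1 reference transcript in the files, ENST00000373218, at chr10:70404379-70428618 on the plus strand of GRCh38. It has 3 exons and 7257 bases, of which the last exon holds 6903 and, in the annotation, a 3′ UTR of 6871 bases. No assembled transcript shared an intron with it, so every way of summing transcripts gave the same value. Coverage per base was divided by the estimated sequence in each library, in gigabases. Exon 2 stood at 31.2 ± 0.0985 with PSENEN siRNA and 10.3 ± 1.29 with mismatch siRNA (SD, n = 3), a ratio of 3.03. The long exon 3 stood at 16.01 ± 0.1203 and 6.80 ± 0.509, a ratio of 2.36. Exon 1 was at 12.3, 6.62 and 9.65 with PSENEN siRNA and at 4.67, 5.05 and 5.14 with mismatch siRNA, a ratio of 1.93. All 3 exons were therefore higher in every PSENEN siRNA library, and exon 1 varied most between those libraries. Of the 31-base words in this transcript, 1.41% occur in another annotated gene, so few of its reads could be shared.

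**Figure D2:**
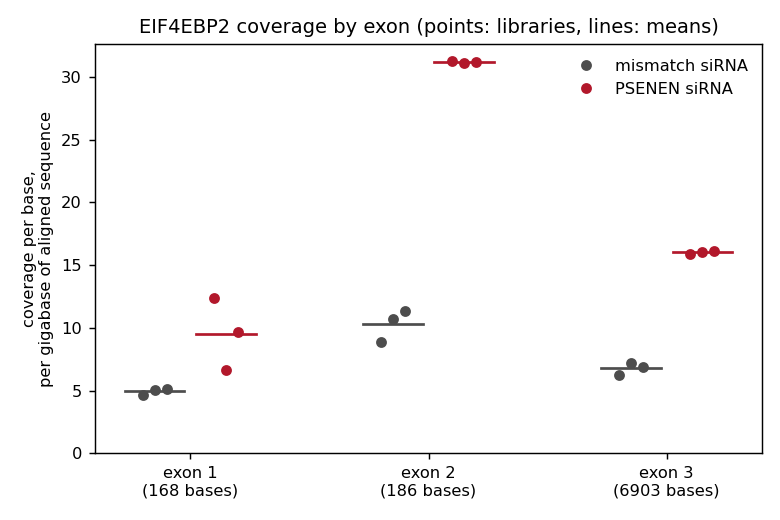
Coverage per base of the 3 EIF4EBP2 exons, per gigabase of aligned sequence, in each library (points) with group means (lines). The PSENEN siRNA points lie above the mismatch siRNA points in each exon, with mean ratios of 1.93, 3.03 and 2.36.

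Among 10744 protein-coding genes tested, the 5 with the pattern nearest to EIF4EBP2 over the 6 libraries were TRIM31, KYNU, TNFRSF11B, GPR141 and PCDH7. Nearness was the root mean square distance between centred log2(TPM + 1) values, at 0.0851 for TRIM31 and 0.143 for PCDH7 beside a median of 0.675 over all those genes. PCDH7, a protocadherin of cell adhesion, had the level most like that of EIF4EBP2, at 48.2, 48.6 and 54.0 TPM with PSENEN siRNA and 20.9, 30.5 and 22.5 TPM with mismatch siRNA. TNFRSF11B, the decoy receptor osteoprotegerin, was at 5.29 ± 0.681 and 1.85 ± 0.469 TPM (SD, n = 3). KYNU was near the floor, at 1.61, 1.78 and 1.76 TPM with PSENEN siRNA and 0.195, 0.550 and 0.351 TPM with mismatch siRNA. It reached 1 TPM, the minimum for testing, in the PSENEN siRNA group alone. Its ratio of means was 4.70, and the added 1 TPM brings its pattern nearer to that of EIF4EBP2. The same holds for TRIM31, TNFRSF11B and GPR141, also low, whose ratios of means were 2.94, 2.86 and 2.90 beside 2.31 for EIF4EBP2. The 5 genes were picked for their likeness to a gene that was itself chosen for its difference.

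The cap-binding proteins overlapped between the groups. EIF4E (ENSG00000151247), the cap-binding subunit itself, had the lowest level of the 10 genes, at 7.16, 4.05 and 8.52 TPM with PSENEN siRNA and 4.70, 4.94 and 9.38 TPM with mismatch siRNA. Both groups spanned the same range, with a log2 difference of 0.05 (SE 0.34) whose sign turned in 4 of the 6 fits without 1 library. Its 4 pseudogenes named in the files summed to 21.0 to 27.4 TPM per library, more than EIF4E itself, and 10.89% of its 31-base words occur in another gene, so its level is uncertain. EIF4E2 (ENSG00000135930), the homologue that binds the cap without eIF4G and represses translation, was at 15.7, 16.4 and 32.1 TPM with PSENEN siRNA and 23.5, 35.6 and 26.2 TPM with mismatch siRNA. PSENEN siRNA library 3 lay among the mismatch siRNA libraries, and the log2 difference was -0.45 (SE 0.31).

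EIF4EBP2 and EIF4E can be set side by side because TPM is a level per length. EIF4EBP2 was above EIF4E in all 6 libraries, as was EIF4EBP1. That order concerns RNA and, for EIF4E, a level that its pseudogenes leave uncertain.

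The scaffold genes overlapped between the groups as well, and the size or sign of their differences depended on which transcripts were summed. EIF4G1 (ENSG00000114867), the main scaffold of eIF4F, was at 198, 199.7 and 247 TPM with PSENEN siRNA and at 222, 212 and 127 TPM with mismatch siRNA, a log2 difference of 0.23 (SE 0.23). The third mismatch siRNA library was the low one. In that library 166 TPM sat in assembled transcripts that share an intron with EIF4G1, and 33.1 TPM in the first. With these transcripts counted, the difference turned to -0.23. The reference transcript ENST00000435046 was at 149 TPM in the first PSENEN siRNA library and listed at 0 in the other 5, so the split of this gene into transcripts was not stable between libraries of a group.

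EIF4G2 (ENSG00000110321) encodes a scaffold, also called DAP5, that lacks the eIF4E-binding site and serves translation without the cap. It was at 173, 192 and 178 TPM with PSENEN siRNA and 297, 227 and 170.4 TPM with mismatch siRNA. The third mismatch siRNA library lay below the PSENEN siRNA libraries, and the log2 difference was -0.32 (SE 0.20). With assembled transcripts it was at 390, 208 and 225 TPM against 616, 434 and 375 TPM, a difference of -0.82 in which the first PSENEN siRNA library still overlapped the mismatch siRNA group. CTR9, on the other strand at the same locus, was at 20.3 to 20.8 TPM and 15.9 to 17.6 TPM. The strandedness of the libraries is not given, so reads over the shared bases cannot be told apart.

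EIF4G3 (ENSG00000075151), the second cap-dependent scaffold, was at 25.2, 19.3 and 9.14 TPM with PSENEN siRNA and 29.3, 24.99 and 30.1 TPM with mismatch siRNA. Its log2 difference of -0.73 (SE 0.35) was the lowest of the 10 genes. Assembled transcripts that share its introns held 6.23, 9.88 and 16.6 TPM with PSENEN siRNA and 2.82, 4.35 and 2.41 TPM with mismatch siRNA, the opposite order. Their sum with the reference transcripts differed by -0.12, and bases over the annotated exons differed by -0.03, so the lower reference level went with a higher assembled level of the same gene.

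The helicases and their cofactor held the other 2 genes that stood apart. EIF4A2 (ENSG00000156976), the less abundant eIF4A paralogue in most dividing cells, was at 150.05, 150.6 and 149 TPM with PSENEN siRNA. After mismatch siRNA it was at 93.7, 45.9 and 43.7 TPM. The means were 149.98 ± 0.698 and 61.1 ± 28.3 TPM (SD, n = 3), a ratio of 2.45 and a log2 difference of 1.37 (SE 0.29). The size of this difference depended on which transcripts were summed. Assembled transcripts that share an EIF4A2 intron held 31.3, 93.0 and 76.7 TPM with mismatch siRNA and 0, 0 and 38.8 TPM with PSENEN siRNA. With them EIF4A2 was at 150.05, 150.6 and 188 TPM against 125, 139 and 120.4 TPM, still without overlap but with a log2 difference of 0.34. Summed in that way, groups did not overlap for 7.78% of all genes with PSENEN siRNA higher and for 14.4% with it lower. EIF4A2 shares 12.32% of its 31-base words with other genes, so part of its level is uncertain. The 2 EIF4A2 pseudogenes in the files summed to 4.19, 3.31 and 4.38 TPM with PSENEN siRNA and 2.88, 1.97 and 0.558 TPM with mismatch siRNA.

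Of the EIF4A2 transcripts, ENST00000425053, with 12 exons, was alike in the groups, at 35.4, 37.0 and 26.8 TPM and 37.3, 30.1 and 30.6 TPM. ENST00000323963, with 11 exons, was at 56.5, 94.6 and 13.3 TPM with PSENEN siRNA and at 0.194, 0 and 0 TPM with mismatch siRNA. ENST00000440191 was at 38.5 and 59.5 TPM in PSENEN siRNA libraries 1 and 3 and under 1 TPM in the other 4. Other reference transcripts stood out in 1 library each: ENST00000443963 at 39.6 TPM in PSENEN siRNA library 3, and ENST00000426808 at 34.4 TPM in mismatch siRNA library 1. The make-up of the gene by transcript thus varied within each group as well as between them. RFC4, which lies on the other strand of the EIF4A2 locus, was at 41.3 to 49.9 TPM with PSENEN siRNA and 35.4 to 54.1 TPM with mismatch siRNA.

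EIF4B (ENSG00000063046), the helicase cofactor, was at 269, 271 and 276 TPM with PSENEN siRNA and 188, 146 and 159.7 TPM with mismatch siRNA. The means were 272 ± 3.23 and 164 ± 21.6 TPM (SD, n = 3), a ratio of 1.65 and a log2 difference of 0.73 (SE 0.11). Assembled transcripts added 17.2 TPM in 1 library, the first with mismatch siRNA, and left the difference at 0.69. The full-length transcript ENST00000262056, with 15 exons and 4148 bases, was at 199.8, 204 and 202 TPM against 142, 139 and 146 TPM. The short transcript ENST00000552490, with 7 exons and 841 bases, was at 64.6, 64.5 and 71.0 TPM against 22.2, 0.211 and 7.25 TPM. Both were higher in every PSENEN siRNA library. The 8 EIF4B pseudogenes in the files summed to 60.1 to 75.4 TPM per library and 26.81% of the gene's 31-base words occur elsewhere, so part of its level is uncertain.

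EIF4A1 (ENSG00000161960), the main helicase of eIF4F and the most abundant of the 10 genes by mean in both groups, was at 291, 279 and 429 TPM with PSENEN siRNA and 301, 589 and 278 TPM with mismatch siRNA. The groups overlapped, with a log2 difference of -0.17 (SE 0.33) that became 0.17 without the second mismatch siRNA library. Its leading transcript differed between libraries of a group. ENST00000293831 led in the first PSENEN and second mismatch siRNA libraries, at 272 and 367 TPM. ENST00000582746 led in the second PSENEN siRNA library, at 257 TPM, and in mismatch siRNA libraries 1 and 3, at 250.5 and 234 TPM. ENST00000580888, a model of 710 bases, led in the third PSENEN siRNA library at 289 TPM. EIF4A1 also shares the most sequence: 44.84% of its 31-base words occur in another gene, and its 9 pseudogenes summed to 108 to 141 TPM, so its level is uncertain.

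**Figure D3:**
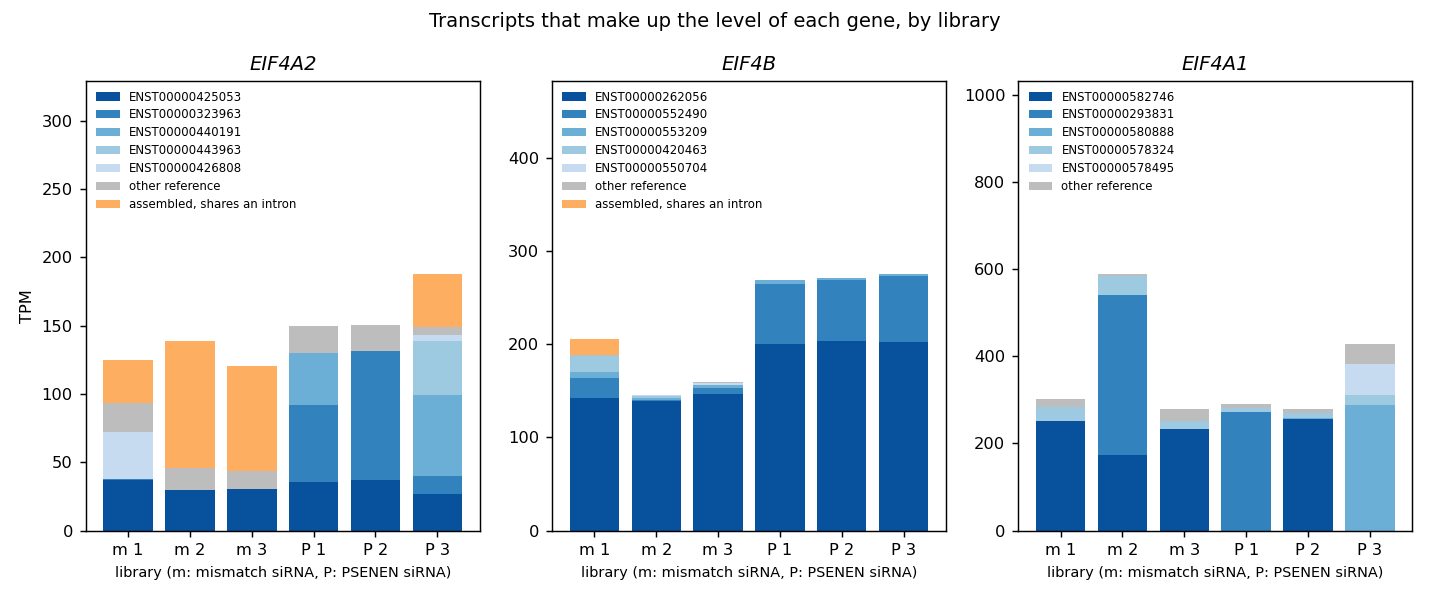
TPM of the transcripts of EIF4A2, EIF4B and EIF4A1 in each library, stacked, with the 5 most abundant reference transcripts in blue shades, the other reference transcripts in grey and assembled transcripts that share an intron in orange. Assembled EIF4A2 transcripts fill much of the mismatch siRNA bars, at 31.3, 93.0 and 76.7 TPM, and the leading EIF4A1 transcript changes between libraries of a group.

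A measure that does not depend on how an exon is assigned to transcripts was added after the data were seen. It sums coverage over the annotated exons of a gene from every assembled transcript, relative to all assembled bases of the library, and it is not scaled for length, so only the same gene is compared. EIF4EBP2 was at 254, 261 and 256 with PSENEN siRNA and 99.98, 113 and 110.3 with mismatch siRNA, a log2 difference of 1.25. EIF4A2 was at 221, 223 and 268 against 160, 146 and 128, a difference of 0.71 that lay between its values from the 2 ways of summing TPM. EIF4B was at 717, 731 and 726 against 510, 443 and 481, a difference of 0.60. These 3 genes were thus higher in every PSENEN siRNA library by each of the 3 measures. By the exon measure, groups did not overlap with PSENEN siRNA higher for 12.5% of 15595 genes, and with it lower for 12.4%.

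By the same exon measure EIF4A1 was at 452, 466 and 407 with PSENEN siRNA and 534, 771 and 743 with mismatch siRNA, a log2 difference of -0.61 with no overlap. The paralogues EIF4A1 and EIF4A2 therefore lay in opposite directions by this measure, whereas EIF4A1 overlapped in TPM. EIF4E2 was at 37.5 to 42.8 and 43.3 to 48.7, a difference of -0.19 with no overlap and a narrow gap. EIF4G2 differed by -0.74 with overlap. EIF4EBP1, EIF4E and EIF4G1 differed by 0.17, 0.22 and 0.15, all with overlap.

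**Figure D4:**
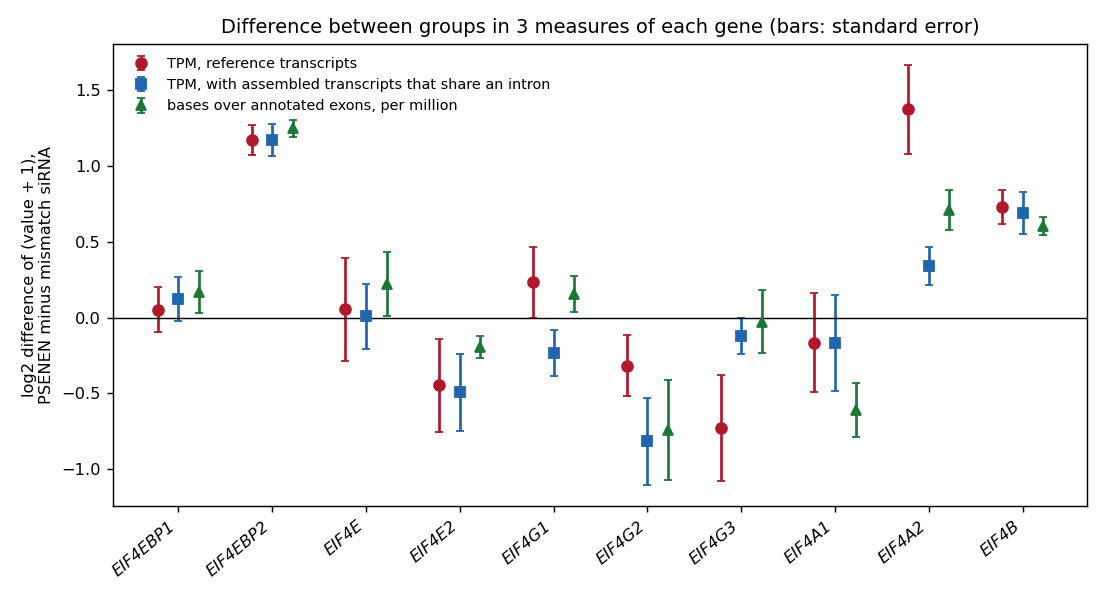
Log2 difference of value + 1, PSENEN siRNA minus mismatch siRNA, for each gene by 3 measures (TPM of reference transcripts, TPM with assembled transcripts, bases over annotated exons), with the standard error as bars. EIF4EBP2 (1.17, 1.17 and 1.25) and EIF4B (0.73, 0.69 and 0.60) moved little between measures, whereas EIF4A2 ran from 0.34 to 1.37 and EIF4G1 took both signs.

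The starts of the 3 higher genes were compared, because mRNAs that begin with a C and a run of pyrimidines, the terminal oligopyrimidine or TOP motif, are a known class whose translation depends on mTORC1. RefSeq promoter entries on GRCh38.p14, of 250 bases before to 50 after a start, matched 9 of the 10 genes with 14 entries, and there was none for EIF4EBP1. A start C followed directly by at least 4 pyrimidines was found in EIF4A2 and EIF4B alone among these, and in 4.07% of the 35116 entries in the table. The 90 bases from 60 before the start are shown for the 3 higher genes and for EIF4A1, the paralogue of EIF4A2. Capitals mark the pyrimidine run at the start, which is base 61, and the E-box CACGTG, a palindrome and so read alike on both strands. All 4 genes are on the plus strand, and the windows lie at chr3:186783517-186783606 for EIF4A2, chr12:53006396-53006485 for EIF4B, chr10:70404085-70404174 for EIF4EBP2 and chr17:7572765-7572854 for EIF4A1.
EIF4A2: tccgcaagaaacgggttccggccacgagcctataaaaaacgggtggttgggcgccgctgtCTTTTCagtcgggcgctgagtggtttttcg
EIF4B: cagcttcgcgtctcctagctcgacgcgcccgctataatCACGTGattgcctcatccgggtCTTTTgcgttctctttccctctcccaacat
EIF4EBP2: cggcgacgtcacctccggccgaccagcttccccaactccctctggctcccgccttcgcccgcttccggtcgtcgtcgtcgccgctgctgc
EIF4A1: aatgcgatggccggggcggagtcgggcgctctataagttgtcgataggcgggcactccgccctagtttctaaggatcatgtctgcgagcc

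The EIF4A2 entry starts at the same base as ENST00000425053, the transcript that was alike in the groups. The leading EIF4B transcript starts 298 bases upstream of its entry, the EIF4EBP2 transcript 234 bases downstream, and ENST00000582746 of EIF4A1 17 bases downstream. The starts in use in these cells were not measured. CACGTG, which Myc and related factors bind, was found in the 300 bases of EIF4B (1 match), EIF4E (2 matches) and the first of the EIF4G1 entries (2 matches), and in 7.26% of all entries. A match describes the letters of the window and is not a measured site.

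The other genes of the pathway were taken from 5 lists and read from the fit over all genes, in which no gene of any list was called by limma with Benjamini-Hochberg adjustment. Of 20 tested partners and regulators of eIF4F, 2 were higher and 0 lower at an unadjusted p under 0.05, and their median log2 difference was -0.06. Over all 15647 genes the shares at that threshold were 4.49% higher and 8.49% lower, and the counts of each list below are to be read against them. The most abundant was PABPC1, the poly(A)-binding protein that bridges to eIF4G, at 473 ± 129 TPM with PSENEN siRNA and 389 ± 47.7 TPM with mismatch siRNA (adjusted p = 0.647, limma). The 2 with an unadjusted p under 0.05, named after their values were seen, were EIF4A3 and MKNK2. EIF4A3, an eIF4A homologue of the exon junction complex, was at 79.7 ± 14.6 and 45.8 ± 8.52 TPM (SD, n = 3; adjusted p = 0.159, limma), and its log2 difference of 0.78 became 0.28 with assembled transcripts. MKNK2, a kinase that phosphorylates eIF4E, was at 63.9 ± 9.38 and 41.9 ± 7.49 TPM (adjusted p = 0.240, limma). EIF4EBP3, the remaining 4E-BP gene and likewise named afterwards, was under 0.01 TPM in all 6 libraries.

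Of 22 tested genes of the mTORC1 axis, which acts on the 4E-BPs, 1 was higher (DDIT4) and 2 were lower (TBC1D7 and LAMTOR2) at an unadjusted p under 0.05, with a median of -0.13, beside 4.49% and 8.49% of all genes. Its most abundant gene was DDIT4, an mTORC1 inhibitor induced by stress, at 339, 159 and 324 TPM with PSENEN siRNA and 89.1, 142 and 130.3 TPM with mismatch siRNA. The groups did not overlap, but the second PSENEN siRNA library lay near the mismatch siRNA group, and the log2 difference was 1.13 (SE 0.34, adjusted p = 0.258, limma). The other genes of this list were named after their values were seen. TBC1D7, a subunit of the TSC complex that restrains mTORC1, was at 5.57 ± 2.77 and 11.4 ± 1.63 TPM (SD, n = 3; adjusted p = 0.300, limma), and its log2 difference of -1.004 became -0.25 with assembled transcripts. LAMTOR2, part of the complex that anchors mTORC1 at the lysosome, was at 50.1 ± 6.48 and 61.8 ± 3.29 TPM (adjusted p = 0.375, limma). MTOR, the kinase itself, was at 26.2 ± 1.45 and 23.8 ± 0.622 TPM (SD, n = 3).

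Of 29 tested initiation factors outside the complex, 0 were higher and 0 lower at an unadjusted p under 0.05 by limma, with a median of -0.02. EIF1, which guards the choice of the start codon, was the most abundant, at 206 ± 2.001 and 218 ± 10.4 TPM (SD, n = 3; adjusted p = 0.714, limma). Of 9 tested mRNAs known for translation that depends on eIF4E, 0 were higher and 1 lower at an unadjusted p under 0.05, with a median of -0.11. The 1 was CCND1, which encodes cyclin D1 and had the highest mean of the list over the 6 libraries, at 78.5, 88.8 and 84.2 TPM with PSENEN siRNA and 151, 142 and 112.6 TPM with mismatch siRNA (log2 difference -0.67, SE 0.13, adjusted p = 0.122, limma). Of 13 tested genes of the integrated stress response, whose factor ATF4 acts on EIF4EBP1, 1 was higher and 3 were lower at an unadjusted p under 0.05, with a median of -0.13, beside 4.49% and 8.49% of all genes. The 1 higher gene was DDIT4, which is in both lists. The 3 lower genes, named after their values were seen, were ATF4, TRIB3 and CHAC1, with log2 differences of -0.30, -0.39 and -1.28. ATF4 was at 145 ± 2.66 and 179 ± 18.7 TPM (adjusted p = 0.310, limma).

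**Figure D5:**
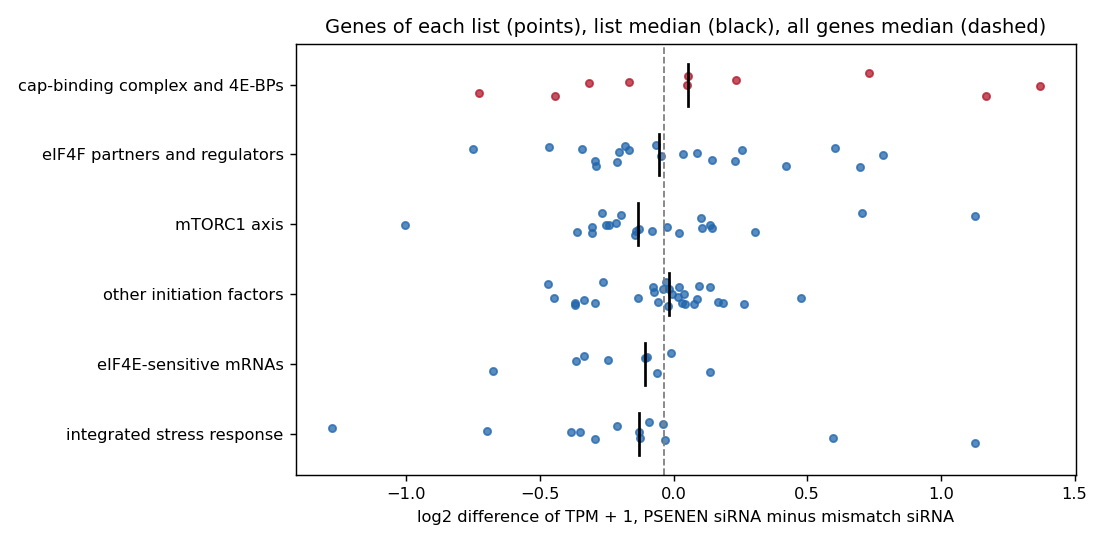
Log2 difference of TPM + 1, PSENEN siRNA minus mismatch siRNA, for each tested gene (points) of the cap-binding complex and of 5 related lists, with the list median as a black bar and the median of all genes as a dashed line. The list medians run from -0.13 to 0.05, beside -0.04 for all genes. Differences were negative for 4 of 10 members, 11 of 20 eIF4F partners, 14 of 22 mTORC1 axis genes and 16 of 29 other initiation factors. They were negative for 8 of 9 mRNAs that depend on eIF4E and 11 of 13 stress response genes. Over all genes they were negative for 8541 of 15647. These counts were not tested.

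In the whole series, PSENEN was at 1.746, 2.08 and 1.496 TPM with its siRNA and 6.58, 8.85 and 6.55 TPM with mismatch siRNA, a log2 difference of -1.58 (SE 0.18, adjusted p = 0.0471, limma). limma called 20 genes higher and 44 lower of 15647, and the split was 21 and 28 with median-of-ratios scaling and 23 and 33 with FPKM. Estimated depth was 9.16 to 11.9 gigabases with PSENEN siRNA and 11.5 to 15.6 with mismatch siRNA, and rank correlations between libraries were 0.911 to 0.922 within groups and 0.902 to 0.913 between them. Assembled transcripts that share an intron held 5.46% to 5.85% of TPM with PSENEN siRNA and 6.16% to 6.96% with mismatch siRNA. Reference transcripts held 66.4% to 67.5% and 67.1% to 68.6%. All 7 keratinocyte markers were above 1 TPM in every library, with sums of 2732 to 3484 TPM with PSENEN siRNA and 2816 to 7001 TPM with mismatch siRNA. Of these, 5 (KRT5, KRT17, TP63, CDH1 and DSG3) were lower in every PSENEN siRNA library than in any mismatch siRNA library. That order was found for 13.7% of the 15647 genes tested. The gap was narrow for KRT5, at 1388 TPM in the highest PSENEN siRNA library and 1427 TPM in the lowest mismatch siRNA library. KRT14 ran from 146 to 3913 TPM within the mismatch siRNA group. Summed fibroblast markers were at 0.460 to 1.01 and 1.18 to 1.47 TPM, with 3 of 6 at 0, and melanocyte markers at 0 to 0.229 and 0 to 0.545 TPM, with 3 of 4 at 0. Of the immune markers, 3 of 4 were at 0, and CD74 was at 8.74 to 10.6 and 11.9 to 17.5 TPM. The part of depth, of the keratinocyte markers and of CD74 in the differences above was not tested. In bulk RNA, fewer cells of a type and less RNA per cell cannot be told apart.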

How the data were processed

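The authors deposited 1 StringTie assembly per library, named as the source of each line per the file headers, with TPM, FPKM and coverage per base for each transcript. Whole counts are not among the values used. Not given in the sources used here: aligner, options and read length. The submitters' processing notes list Bowtie 0.12.2 and mouse builds that do not match human files. Of the reference transcripts in the human annotation, 98.39% had the same GRCh38 position.

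Gene TPM was summed over transcripts that carry the gene's reference name. The limma package (3.58.1, R 4.3.3) was fitted with group as its term and a trend on intensity to log2(TPM + 1), with 4 residual degrees of freedom. Genes entered if 3 or more libraries reached 1 TPM. A fold change on this scale understates that of low genes. Depth was estimated from coverage and FPKM. The steps were tested on simulated data. Python 3.11.15, NumPy 2.4.6, pandas 2.3.3 and matplotlib 3.10.9 were used for parsing and figures.

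The members, lists and tests were chosen with earlier results of these data known. The rule for named genes took the 10 members, up to 3 called genes or else the most abundant gene of each list, the 5 genes nearest to EIF4EBP2, PSENEN and overlapping genes; other list genes were named after their values were seen. Alternatives were other pseudocounts, filters, FPKM, scalings, transcript sums, a replicate block and each library left out.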

Additional observations from a re-analysis of the deposited data

How the results depend on the processing

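Over all genes, 20 were called higher and 44 lower. The counts were 9 and 19 with a pseudocount of 0.1, 9 and 34 with a minimum of 5 TPM, 40 and 69 with assembled bases in place of TPM, 21 and 28 with median-of-ratios scaling and 17 and 28 with quantile normalization. The share of calls that were higher was 31.3%, against 42.9% with median-of-ratios scaling, 41.1% with FPKM and 20.9% with a minimum of 5 TPM. Without 1 library each, 2 to 9 genes were called higher and 2 to 14 lower. With the replicate number as a block, 0 were called higher and 1 lower by limma. Same-numbered libraries deviated from their group means with correlations of -0.0489, 6.5e-05 and -0.0142. With 3 libraries per group, these values show no pairing by number but cannot exclude it.

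EIF4EBP2 was called in each fit that kept all 6 libraries, apart from that with the replicate block, and in none that left 1 out. EIF4B was called with assembled bases in place of TPM, and EIF4A2 without the first mismatch siRNA library. The calls of these members rest on values that were in view when they were chosen, so they are a description. EIF4EBP2, EIF4E2, EIF4G2, EIF4G3, EIF4A2 and EIF4B kept their sign in all 18 alternatives, over 0.34 to 1.72 for EIF4A2 and 0.60 to 0.83 for EIF4B. The range was -0.76 to -0.19 for EIF4E2, -0.82 to -0.12 for EIF4G2 and -1.02 to -0.03 for EIF4G3, which thus came close to no difference. Other filters, the fit without a trend and the replicate block cannot change a gene's difference, so they add nothing to the count of 18. Depth is known only as an estimate, and no counting interval can be given.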

Other observations

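Genes with a start C and at least 4 pyrimidines after it in their RefSeq entry were described over the same fit, after EIF4A2 and EIF4B were seen to have one. Of 652 such genes tested, 11.04% did not overlap with PSENEN siRNA higher and 12.88% with it lower, and limma with Benjamini-Hochberg adjustment called 0 in either direction. Of 7753 tested genes whose entries lack the run, 7.66% did not overlap with PSENEN siRNA higher and 16.19% with it lower, and limma called 8 higher and 25 lower. The median log2 differences were -0.01 with the run and -0.06 without it, and leaving out the 46 ribosomal protein genes among the 652 moved the first to -0.02. No test of the difference between these classes was made.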
